A study of Homo sapiens with 15 samples.

Results

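This comparison sets U937 cells treated with prexasertib against U937 cells treated with diluent. U937 is an established human myeloid leukemia line of monocytic character, and prexasertib is a small-molecule inhibitor of the checkpoint kinase CHK1. The libraries were chosen by their labels: 3 diluent and 3 prexasertib libraries of U937, 6 of the 15 RNA-seq libraries in the series. Cells had received diluent or 10 nM prexasertib for 24 hours, and every culture, the diluent controls included, also contained 5 µM Q-VD-OPh, a caspase inhibitor that blocks the execution of apoptosis. The series also holds the leukemia line ML1 under the same pair of conditions and U937 under prexasertib with a second compound, LSN622666, and it asked which candidate transcription factors of the TNF gene changed in mRNA. U937 with LSN622666 was not used here. The labels do not say whether the 3 libraries of a group came from separate cultures, so p-values measure the spread among these libraries, which may be technical.

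CHK1 is the kinase that ATR activates when replication forks stall. It restrains CDK activity, holds back late replication origins and delays mitosis until replication is complete. When CHK1 is inhibited, cells can enter mitosis with unfinished or damaged DNA. Myeloid cells such as U937 also carry inducible inflammatory programmes, in which stress kinases acting through AP-1 factors, and the NF-kB dimers released from their inhibitors, switch on cytokine genes.

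The libraries held 49011222 to 70978970 counted reads, and no pair of them was identical. In the diluent group 17782 to 18435 genes had at least 1 count, against 19742 to 21023 in the prexasertib group, so the groups did not overlap in the number of detected genes. Correlations of log2 CPM (counts scaled to library size) were 0.987 to 0.991 among diluent libraries, 0.981 to 0.991 among prexasertib libraries and 0.933 to 0.975 between the groups, with prexasertib replicate 2 farthest from the controls. Diluent replicate 3 stood apart in 18S ribosomal RNA (RNA18S5), at 6523 CPM against 630.4 and 663.1 CPM in the other diluent libraries and 236.5 to 785.5 CPM under prexasertib; this gene was singled out after its values were seen, and its part in any result was not tested. Of 24 myeloid identity markers 22 were measured well enough to test, and their summed level was 1410 to 1650 CPM in diluent and 1340 to 1520 CPM in prexasertib. Of 24 markers of other cell types, CD3E, CD3D, MS4A1, PF4, EPCAM, KRT19 and INS were at 0 in all 6 libraries. The summed level of the 10 that could be tested was 224 to 270 CPM in diluent and 156 to 224 CPM in prexasertib, most of it NKG7, with means of 172.8 and 137.3 CPM (adjusted p = 0.16, edgeR).

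Counts of 26485 genes were filtered for low values, which left 15841 genes for a test of prexasertib against diluent with edgeR's quasi-likelihood test and Benjamini-Hochberg adjustment over all of them. Calls were made at an adjusted p under 0.05. By this rule 2462 genes (15.5%) were higher and 1008 genes (6.36%) were lower under prexasertib. The labels do not say whether equal replicate numbers mark a shared day or culture. With that number as a block 3383 were higher and 2711 lower. The block raised the number of lower calls by over 1.5 times in 32 of the 42 gene lists and that of higher calls in 7, and cut neither by as much in any. Fold changes were uneven between the directions. The median log2 fold change was 1.37 among the genes called higher and -0.58 among those called lower, against -0.01 over all tested genes. At least a 2-fold change was reached by 1576 of the higher genes and by 33 of the lower genes. Genes called higher started from low levels, with a median of 3.21 CPM in diluent against 67.0 CPM for genes called lower and 19 CPM for all tested genes. The groups did not overlap in 2439 of the genes called higher and 998 of those called lower. Called or not, 3927 of the tested genes were higher without overlap and 3162 lower without overlap. A lack of overlap stated below for a called gene is therefore no separate support, and the largest changes were named only where it held. Since a bulk sample was measured, a change in the share of cells in a state and a change in RNA per cell cannot be told apart.

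**Figure D1:**
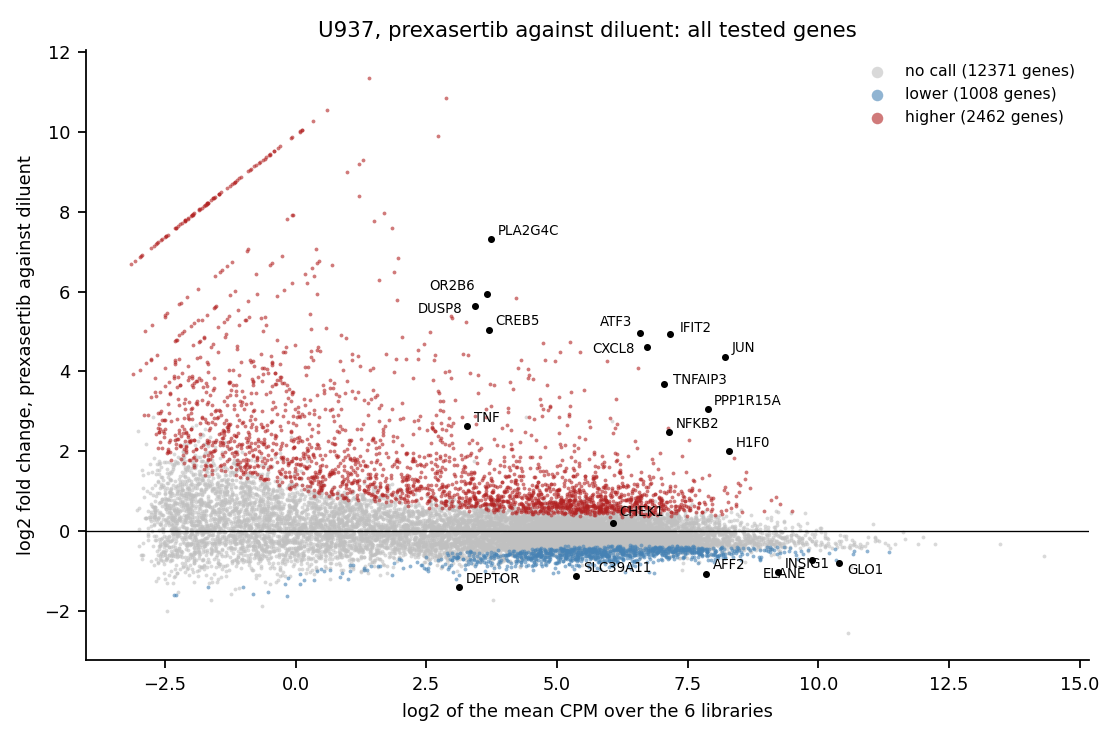
Each point is 1 of the 15841 tested genes: the x axis is the log2 of its mean CPM over the 6 libraries, the y axis its fitted log2 fold change, and black points mark named genes. The 2462 higher genes (red) reach far larger changes than the 1008 lower genes (blue), and the straight line of points at the upper left is made of genes with 0 counts in every diluent library, whose fitted fold change depends on the prior count.

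Prexasertib replicate 2 showed the strongest response. Genes called higher had a median log2 change from the diluent mean of 1.22 in prexasertib replicate 1, 1.69 in replicate 2 and 1.01 in replicate 3, and 85.9% of them changed most in replicate 2. Genes called lower had median changes of -0.53, -0.84 and -0.39, and 89.8% changed most in replicate 2. When each library was left out in turn, 1226 of the higher genes and 111 of the lower genes were called in all 6 fits. The count of lower genes depended strongly on single libraries: it was 487, 273 and 133 without diluent replicate 1, 2 or 3, 412 without prexasertib replicate 2 and 1870 without prexasertib replicate 3. The count of higher genes moved by more than 1.5 times only without diluent replicate 3, to 1446.

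The largest rise among genes with a mean of at least 5 CPM and a call kept without any 1 library was that of PLA2G4C, a calcium-independent cytosolic phospholipase A2 (GRCh38 chromosome 19, 48047843 to 48110817, minus strand). Its level was 0.231, 0.107 and 0.148 CPM in the diluent libraries and 17.8, 45.4 and 16.7 CPM in the prexasertib libraries (log2 fold change 7.31 ± 0.51 SE, adjusted p = 3.95e-05, edgeR). The groups lay far apart, and prexasertib replicate 2 was well above the other prexasertib libraries. With 29 counts over the diluent group, PLA2G4C would not have passed the filter on low values by its diluent libraries alone. CREB5, a bZIP transcription factor that binds CRE-type sites, was at 0.78, 0.979 and 0.507 CPM in diluent and 21.5, 37.9 and 16.4 CPM in prexasertib (log2 fold change 5.05 ± 0.37, adjusted p = 3.95e-05). In CREB5 replicate 2 was again the highest of the treated libraries, with no overlap between groups. OR2B6, an olfactory receptor gene beside the large histone gene cluster of chromosome 6 (27957241 to 27958182, plus strand), TEX14, a protein of germ cell bridges and kinetochores, and SLAMF7, a lymphocyte adhesion receptor, rose by 5.93 ± 0.37, 5.38 ± 0.54 and 5.34 ± 0.50 on the log2 scale. OR2B6, with 68 counts over the diluent group, would not have passed the filter by its diluent libraries alone either. KLF2, a zinc finger factor of quiescent leukocytes and endothelium, rose from a mean of 0.359 to 11.5 CPM (log2 fold change 5.00 ± 0.40, adjusted p = 7.17e-05).

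Some genes were nearly silent in diluent cells. There were 90 tested genes with 0 counts in all 3 diluent libraries, and all 90 were called higher, which the filter on low values forces, because such a gene enters the test only through its treated libraries. COL1A2, a fibrillar collagen chain, had 0 counts in diluent and 153 in prexasertib, which is at least 48.4-fold higher when set against 3 counts over the diluent group. RND3, an atypical small GTPase, had 0 and 138 counts, at least 43.6-fold higher by the same floor. KIF5A, a neuronal kinesin heavy chain, had 1 and 207 counts, a depth-scaled ratio of 196 with a 95% exact counting interval of 34.9 to 7800. FRG2C and FRG2EP, near-identical copies of a subtelomeric gene family whose reads cannot be assigned with certainty, had 2 against 2561 and 1 against 2845 counts. Most of these came from prexasertib replicate 2, where FRG2C was at 32.6 CPM against 3.196 and 3.584 CPM in the other treated libraries. Both calls were lost in the same fits: FRG2C had adjusted p = 0.09, 0.16 and 0.075 and FRG2EP 0.1, 0.17 and 0.096 without diluent replicate 1, 2 or 3. KIF5A, FRG2C and FRG2EP also passed the filter only through the treated libraries. Intervals and floors cover counting error only.

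The mRNA of CHEK1, which encodes the drug's target CHK1, did not pass the test. Its level was 64.5, 63.3 and 59.1 CPM in diluent and 63.2, 87.2 and 65.2 CPM in prexasertib (log2 fold change 0.21 ± 0.15, adjusted p = 0.317, edgeR). The groups overlapped, and prexasertib replicate 2 alone lay clearly above the controls. A kinase inhibitor need not alter the mRNA of its target, so these values do not check the treatment. CDK2, the S-phase cyclin-dependent kinase, was at 59.8, 61.9 and 59.5 CPM in diluent and 46.1, 39.9 and 49.9 CPM in prexasertib (log2 fold change -0.41 ± 0.13, adjusted p = 0.0414). Every treated library was below every control, but the call was lost when diluent replicate 1, 2 or 3 was left out (adjusted p = 0.077, 0.11 and 0.12), and likewise for prexasertib replicate 1 or 2 (adjusted p = 0.076 and 0.08). TNF, the cytokine the study is about, was at 2.76, 3.08 and 2.24 CPM in diluent and 14.7, 25.03 and 10.3 CPM in prexasertib, a log2 fold change of 2.63 ± 0.31 (adjusted p = 0.000464).

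Chemokine genes gave the largest median change of the 42 gene lists. Of 28 chemokine ligands 15 passed the filter on low values, 2 of them with 0 counts in every diluent library, which could enter only through the treated libraries. Members with few diluent counts could enter in the same way, and these were not counted. Of the 15 tested 12 were higher, against 15.5% of all tested genes, and 0 were lower by edgeR (0 also at an unadjusted p under 0.05, and 0 by DESeq2). The median log2 fold change was 3.58. The same pair of counts, unadjusted and by DESeq2, stands in brackets after each further count of 0. CXCL8, which encodes the neutrophil attractant interleukin 8 (chromosome 4, 73740506 to 73743716, plus strand), was at 8.78, 10.4 and 5.73 CPM in diluent and 255, 229 and 129 CPM in prexasertib (log2 fold change 4.61 ± 0.30, adjusted p = 3.55e-05, edgeR). It was the most abundant chemokine among those named, and here prexasertib replicate 1, not 2, was the highest. CCL20, the ligand of CCR6 on dendritic and T cells, was at 0.462, 0.196 and 0.423 CPM in diluent and 4.04, 11.2 and 6.37 CPM in prexasertib (log2 fold change 4.31 ± 0.45). CXCL2, another neutrophil attractant, rose from 0.809, 1.69 and 0.698 CPM to 9.34, 17.4 and 9.82 CPM, and CXCL10, an interferon-inducible T cell attractant, from 0.823, 1.83 and 1.01 CPM to 12.03, 28.6 and 16.03 CPM. No diluent library reached the level of any treated library in these 4 genes. Leaving out any 1 library left 11 or 12 of the 15 genes called higher.

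The promoter of CXCL8 is printed because it belongs to the most abundant of the chemokines named and holds 2 well-known element types. It is the RefSeq window (GRCh38.p14) from 250 bases before to 50 bases after the gene's start, chr4:73740319-73740618 on the plus strand, written 5′ to 3′ with matches to the AP-1 motif TGANTCA and the TATA motif TATAAA in capitals:
CXCL8: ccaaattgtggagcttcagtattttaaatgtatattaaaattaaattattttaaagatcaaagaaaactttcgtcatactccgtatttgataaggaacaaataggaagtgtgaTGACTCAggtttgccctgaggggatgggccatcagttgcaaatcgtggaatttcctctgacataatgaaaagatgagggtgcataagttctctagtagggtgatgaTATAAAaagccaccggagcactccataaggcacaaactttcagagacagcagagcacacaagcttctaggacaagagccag
The AP-1 match spans bases -137 to -131 and the TATA match -31 to -26 from the start. Motifs were searched on both strands in the 11104 tested genes that have such a window. The AP-1 motif was found in 4.9% of all these windows, 7.28% of those of higher genes and 3.89% of those of lower genes. For the TATA motif the shares were 6.38%, 11.7% and 4.66%. It reached 15.4% in genes at least 2-fold higher. The E2F motif TTTNNCGC was in 10.0%, 8.0% and 10.4%. These matches describe letters in a fixed window and do not show binding.

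Among 23 tested interleukins and growth factor ligands 14 were higher (60.9%, against 15.5% of all genes) and 0 lower (0 and 0), with a median log2 fold change of 1.33. Of the 23, 1 had 0 counts in every diluent library and could enter only through the treated libraries. Members with few diluent counts could enter in the same way, and these were not counted. GDF15, a stress-induced TGF-beta family member, was at 0.217, 0.0712 and 0.0846 CPM in diluent and 3.37, 4.97 and 2.97 CPM in prexasertib (log2 fold change 4.84 ± 0.44, adjusted p = 0.000121, edgeR). With 23 counts over the diluent group, GDF15 too passed the filter only through the treated libraries. IL23A, the p19 subunit of interleukin 23, went from 2.66, 1.87 and 2.03 CPM to 14.96, 16.2 and 9.68 CPM (log2 fold change 2.63 ± 0.25). OSM, an interleukin 6 family cytokine of myeloid cells, went from 1.56, 1.25 and 0.846 CPM to 10.2, 8.46 and 6.43 CPM, and HBEGF, an EGF receptor ligand, from 4.57, 5.25 and 3.68 CPM to 24.0, 40.6 and 20.6 CPM. All 4 genes were well separated between groups, and 12 of the 14 calls were kept in every fit that left out 1 library. In the TNF superfamily 13 of 26 tested ligands and receptors were higher (50%) and 1 was lower (3.85%, against 6.36% of all genes). TNFRSF9, the costimulatory receptor 4-1BB, rose by 3.97 ± 0.38 and its ligand TNFSF9 by 2.01 ± 0.23 on the log2 scale, the ligand from a mean of 15.9 to 64.3 CPM. TNFRSF10D, a TRAIL decoy receptor, rose by 1.97 ± 0.24. TNFSF13B, the B cell survival factor BAFF, was the lower member, at 191, 154 and 181 CPM in diluent and 129, 71.1 and 125 CPM in prexasertib. Its call (adjusted p = 0.0385, edgeR) was lost without diluent replicate 1, 2 or 3 (adjusted p = 0.087, 0.05 and 0.11), and without diluent replicate 3 the list's count of higher genes fell to 8.

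Of 30 tested NF-kB subunits, inhibitors and regulators 18 were higher and 0 lower (1 and 0), with a median log2 fold change of 0.68. TNFAIP3, which encodes the ubiquitin-editing inhibitor A20, was at 13.2, 26.5 and 17.6 CPM in diluent and 221, 321 and 194 CPM in prexasertib (log2 fold change 3.68 ± 0.28, adjusted p = 5.02e-05, edgeR). The lowest treated library was several fold above the highest control. BIRC3, the ubiquitin ligase cIAP2, went from 1.88, 2.05 and 1.63 CPM to 16.9, 27.4 and 17.3 CPM. NFKB2, the p100 precursor of the non-canonical subunit p52, went from 39.3, 49.4 and 40.6 CPM to 210, 309 and 200 CPM, and NFKBIA, which encodes the inhibitor IkB-alpha, from 20.1, 23.8 and 18.3 CPM to 94.4, 154 and 91.7 CPM. In all 3 genes replicate 2 was the highest treated library. ICAM1, the endothelial and leukocyte adhesion ligand of beta-2 integrins, rose from 57.5, 53.1 and 44.3 CPM to 177, 252 and 166 CPM (log2 fold change 1.94 ± 0.18). It belonged to a list of 25 tested adhesion genes with 5 higher and 3 lower members (20% and 12%, against 15.5% and 6.36% of all genes). Of that list 3, 2, 3 and 2 were higher without diluent replicate 1, diluent replicate 3, prexasertib replicate 1 or prexasertib replicate 2.

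MAP kinase phosphatases, which switch off ERK, JNK and p38, showed a split. Of 18 tested DUSP genes 7 were higher (38.9%, against 15.5% of all genes) and 0 lower (0 and 0), with a median of 0.22. The same 7 were called in every fit that left out 1 library. DUSP8, a phosphatase for JNK and p38 (chromosome 11, 1554044 to 1571920, minus strand), was at 0.433, 0.427 and 0.423 CPM in diluent and 18.9, 32.1 and 12.8 CPM in prexasertib (log2 fold change 5.63 ± 0.37, adjusted p = 3.55e-05, edgeR). DUSP1, an immediate early phosphatase, was at 2.82, 3.51 and 1.73 CPM in diluent and 58.0, 64.4 and 34.4 CPM in prexasertib (log2 fold change 4.27 ± 0.30). DUSP10, which also acts on JNK and p38, rose from 6.40, 5.91 and 5.14 CPM to 53.7, 90.2 and 35.9 CPM. For these 3 genes every diluent library was far below every treated one. Of 24 tested genes of the JNK and p38 cascade 3 were higher, 2 of them GADD45A and GADD45B, which are not kinases, and 1 was lower, shares of 12.5% and 4.17% against 15.5% and 6.36% of all genes. Without diluent replicate 2 or 3 it had 1 higher and 0 lower genes, and without prexasertib replicate 3 it had 4 lower genes. With all 15 libraries in the fit 7 were lower. GADD45B, a stress-inducible activator of MAP3K4, was at 34.0, 27.1 and 27.6 CPM in diluent and 77.1, 188 and 71.9 CPM in prexasertib, a call (adjusted p = 0.00292, edgeR) lost with a replicate block (0.084).

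PPP1R15A (GADD34), the regulatory subunit that directs protein phosphatase 1 to eIF2-alpha, was among the most abundant genes with a large rise. Its level was 54.1, 55.3 and 42.6 CPM in diluent and 362, 627 and 274 CPM in prexasertib (log2 fold change 3.05 ± 0.28, adjusted p = 0.000121, edgeR). DDIT3 (CHOP), a bZIP factor of the same stress response, went from 10.6, 8.88 and 10.6 CPM to 68.4, 77.7 and 42.2 CPM. Its exons overlap those of MARS over 31.6% of their length, and without strand information reads of overlapping genes cannot be told apart. The list of integrated stress response and amino acid supply genes had 10 higher and 2 lower of 30 tested members, with a median of 0.05. These are shares of 33.3% and 6.67%, against 15.5% and 6.36% of all genes. The count of higher members was 6 without diluent replicate 2 and 5 without diluent replicate 3. The 2 lower members were the eIF2-alpha kinase genes EIF2AK4 and EIF2AK1, with log2 fold changes of -0.59 ± 0.16 and -0.50 ± 0.13. Neither call was kept without diluent replicate 1, 2 or 3, with adjusted p = 0.068, 0.05 and 0.07 for EIF2AK4 and 0.06, 0.068 and 0.089 for EIF2AK1. EIF2AK1 was also lost without prexasertib replicate 2 (adjusted p = 0.054).

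The promoter windows of DUSP8, DUSP1 and PPP1R15A are shown together because each holds at least 1 full match to the palindromic cyclic AMP response element TGACGTCA, the site bound by CREB and ATF family factors, in 3 genes that rose strongly. They come from RefSeq (GRCh38.p14): DUSP8 at chr11:1572222-1572521 (minus strand), DUSP1 at chr5:172771146-172771445 (minus strand) and PPP1R15A at chr19:48872171-48872470 (plus strand). Capitals mark TGACGTCA and, in DUSP1 and PPP1R15A, TATAAA:
DUSP8: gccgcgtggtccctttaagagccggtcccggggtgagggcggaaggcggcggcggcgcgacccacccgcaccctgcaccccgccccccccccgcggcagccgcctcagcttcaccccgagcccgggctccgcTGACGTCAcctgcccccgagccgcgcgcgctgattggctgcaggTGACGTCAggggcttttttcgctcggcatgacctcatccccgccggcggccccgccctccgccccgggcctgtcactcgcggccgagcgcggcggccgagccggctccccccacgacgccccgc
DUSP1: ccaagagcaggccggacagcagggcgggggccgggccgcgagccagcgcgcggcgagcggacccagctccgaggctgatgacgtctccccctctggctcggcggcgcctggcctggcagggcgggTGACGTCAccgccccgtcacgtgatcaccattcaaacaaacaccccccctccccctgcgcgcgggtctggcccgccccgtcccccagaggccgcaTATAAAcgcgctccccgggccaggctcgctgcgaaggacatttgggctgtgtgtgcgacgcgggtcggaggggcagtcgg
PPP1R15A: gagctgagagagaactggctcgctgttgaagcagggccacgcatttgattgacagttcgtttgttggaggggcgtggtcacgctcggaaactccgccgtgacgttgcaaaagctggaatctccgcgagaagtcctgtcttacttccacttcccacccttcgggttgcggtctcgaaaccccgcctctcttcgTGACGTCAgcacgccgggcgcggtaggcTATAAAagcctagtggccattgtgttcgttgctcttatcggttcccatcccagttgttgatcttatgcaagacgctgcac
DUSP8 has matches at -118 to -111 and -74 to -67, DUSP1 at -125 to -118 and PPP1R15A at -58 to -51 from the start. The motif was found in 3.05% of all windows, 4.03% of those of higher genes and 1.68% of those of lower genes. Of the 15 DUSP genes with a window, 2 had it.

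Zinc finger factors of the KLF and EGR families and their immediate early partners were 14 higher and 1 lower of 20 tested, with a median log2 fold change of 1.84. These are shares of 70% and 5%, against 15.5% and 6.36% of all genes. KLF6, a broadly expressed member, was at 41.4, 41.6 and 36.0 CPM in diluent and 227, 333 and 155 CPM in prexasertib (log2 fold change 2.59 ± 0.24, adjusted p = 0.000134, edgeR). SNAI1, a repressor of epithelial genes, went from 6.46, 7.53 and 4.46 CPM to 40.3, 78.5 and 32.6 CPM. ZFP36 (tristetraprolin), which promotes decay of cytokine mRNAs that carry AU-rich elements, went from 13.2, 14.4 and 11.2 CPM to 56.1, 76.6 and 41.7 CPM. The groups did not overlap in any of these. KLF13 was the lower member, with means of 199 and 136 CPM, and its call (adjusted p = 0.037) was lost without diluent replicate 1, 2 or 3 (0.052, 0.11 and 0.1) and without prexasertib replicate 1 or 2 (0.067 and 0.08).

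**Figure D2:**
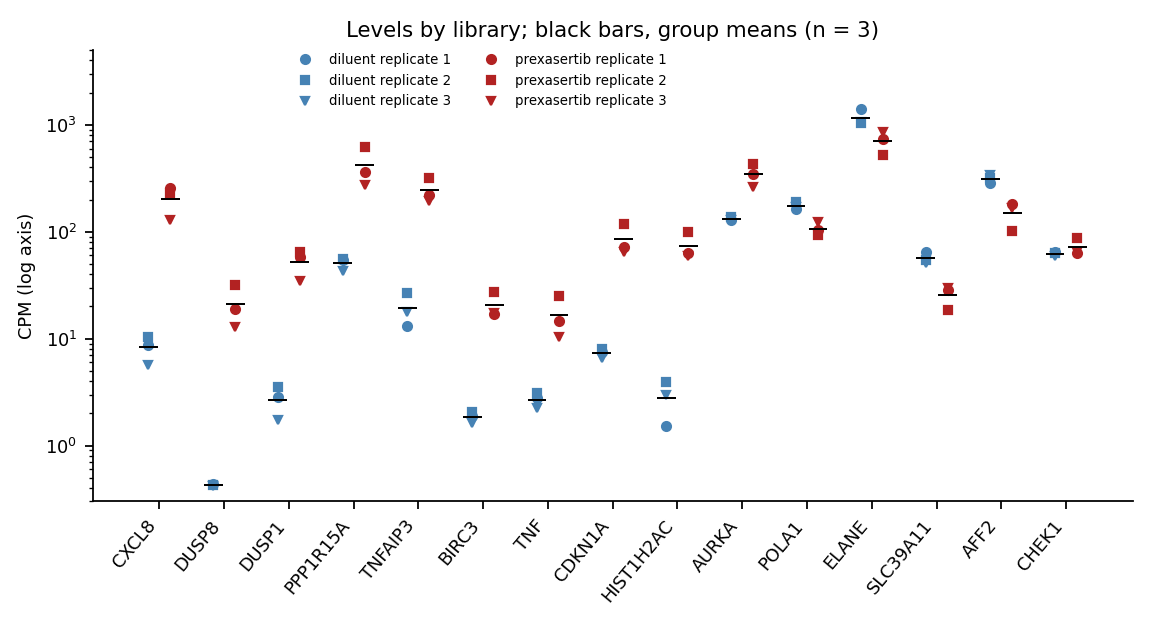
Levels of 15 named genes in each of the 6 libraries, in CPM on a log axis, with black bars for the group means (n = 3 libraries). The induced genes lie far above their controls, for example DUSP1 at 34.4 to 64.4 CPM against 1.73 to 3.51 CPM, whereas lowered genes such as POLA1 and AFF2 differ by less and the groups of CHEK1 overlap.

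Receptors and markers of myeloid cells changed unevenly. Of 27 tested phagocyte receptors 12 were higher (44.4%) and 0 lower (0 and 0), with a median log2 fold change of 1.00, and 11 to 13 were called higher in fits that left out 1 library. C3AR1, the receptor of complement C3a, was at 3.34, 3.31 and 2.24 CPM in diluent and 16.7, 21.9 and 18.1 CPM in prexasertib (log2 fold change 2.67 ± 0.21, adjusted p = 7.17e-05, edgeR). TREM1, which amplifies inflammatory signalling in monocytes, went from 1.13, 1.60 and 0.994 CPM to 6.82, 13.97 and 6.71 CPM. LY96 (MD-2), the lipopolysaccharide-binding partner of TLR4, went from 1.68, 0.463 and 0.824 CPM to 6.04, 9.54 and 5.44 CPM. All 3 genes were low in diluent and clearly separated under prexasertib. The 22 tested myeloid identity markers had 4 higher and 1 lower member, with a median of 0.16. These are shares of 18.2% and 4.55%, near the 15.5% and 6.36% of all genes, and 2 were higher without diluent replicate 3. CD14, the monocyte lipopolysaccharide co-receptor, rose by 2.40 ± 0.44 but stayed low, at 0.839 to 1.93 CPM under prexasertib. CEBPB, a factor of monocyte differentiation and emergency myelopoiesis, went from 33.0, 26.0 and 24.9 CPM to 48.0, 49.7 and 46.5 CPM.

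Granule proteins leaned the other way, but 0 of the lower calls were kept in every fit that left out 1 library. Of 22 tested granule and S100 genes 8 were lower (36.4%, against 6.36% of all genes) and 3 higher, with a median of -0.37. ELANE, neutrophil elastase, was at 1416, 1033 and 1065 CPM in diluent and 744, 517 and 860 CPM in prexasertib (log2 fold change -0.73 ± 0.20, adjusted p = 0.028, edgeR). PRTN3, proteinase 3, was at 331, 359 and 305 CPM in diluent and 195, 167 and 260 CPM in prexasertib (log2 fold change -0.68 ± 0.17, adjusted p = 0.0184). All treated libraries were below all controls, and replicate 2 was the lowest in both genes. These calls were not stable when 1 library was left out. ELANE was lost without diluent replicate 1 or 3 or prexasertib replicate 2 (adjusted p = 0.083, 0.061 and 0.064) and PRTN3 without diluent replicate 2 (0.06). The log2 fold change of ELANE ranged from -0.90 to -0.55 over these fits. Without diluent replicate 1, 2 or 3 the list had 1, 2 and 1 lower members, and without prexasertib replicate 1 or 2 it had 5 and 2. MPO, the neutrophil peroxidase, was among the 3 higher members at a low level, 3.12, 2.49 and 1.90 CPM in diluent and 4.404, 5.74 and 3.797 CPM in prexasertib. Its call (adjusted p = 0.0374) was lost without diluent replicate 2 or 3 (0.089 and 0.15) and without prexasertib replicate 1 or 2 (0.06 and 0.11). PRG2, another higher member, rose from 2.67, 2.10 and 2.66 CPM to 6.20, 8.76 and 4.41 CPM (log2 fold change 1.38 ± 0.27, adjusted p = 0.00695, edgeR). The call of PRG2 was the only call of the list kept in every fit that left out 1 library.

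Among stem and progenitor factors, 3 of 22 tested genes were higher and 3 lower, 13.6% each against 15.5% and 6.36% of all genes. GATA2, a factor of hematopoietic progenitors, rose from 2.85, 1.96 and 2.79 CPM to 6.95, 5.96 and 5.49 CPM (log2 fold change 1.28 ± 0.23, adjusted p = 0.00434, edgeR). BMI1, a Polycomb protein of self-renewing cells, fell from 60.5, 52.2 and 44.8 CPM to 33.4, 25.4 and 33.7 CPM (log2 fold change -0.77 ± 0.16, adjusted p = 0.00874). The groups of both genes were apart. Part of the BMI1 exons also belongs to the readthrough gene COMMD3-BMI1. MYB, a transcription factor of proliferating progenitors, was at 512, 609 and 583 CPM in diluent and 365, 293 and 429 CPM in prexasertib, and its call (adjusted p = 0.0178) was lost without diluent replicate 2 or 3 (0.06 and 0.073). Without diluent replicate 2 or 3 the list had 1 higher and 1 lower gene, and without prexasertib replicate 2 it had 1 higher gene.

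IFIT2, an interferon-induced inhibitor of viral translation (chromosome 10, 89283694 to 89309276, plus strand), was at 9.38, 10.8 and 7.25 CPM in diluent and 75.5, 685 and 77.2 CPM in prexasertib (log2 fold change 4.93 ± 1.07, adjusted p = 0.0255, edgeR). The other treated libraries were still well above the controls, but the call was lost without diluent replicate 1, 2 or 3 (adjusted p = 0.13 in each case) and with a replicate block (0.095). Of 26 tested nucleic acid sensors 8 were higher and 0 lower (1 and 1), with a median of 0.62 and per-library medians of 0.47, 1.09 and 0.29. Without diluent replicate 1, 2 or 3 the number of higher sensors was 3, 4 and 4. IFIH1, the RNA sensor MDA5, was at 32.5, 29.97 and 31.3 CPM in diluent and 100, 254 and 94.6 CPM in prexasertib. AIM2, a cytosolic DNA sensor of the inflammasome, went from 0.376, 0.285 and 0.254 CPM to 2.75, 9.72 and 2.75 CPM. In these 3 genes prexasertib replicate 2 was the highest library, and 85.9% of all genes called higher changed most in it. MB21D1, which encodes the DNA sensor cGAS, rose evenly across the treated libraries, from 15.9, 20.3 and 17.8 CPM to 32.9, 37.95 and 31.1 CPM (log2 fold change 0.92 ± 0.15, adjusted p = 0.00244).

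IRF and STAT pathway genes were 10 higher and 0 lower (4 and 2) of 25 tested, and 6 were higher without diluent replicate 3. The share of higher genes was 40%, against 15.5% of all genes. PIM1 and PIM3, STAT-induced survival kinases, rose by 1.26 ± 0.16 and 1.31 ± 0.17 on the log2 scale (edgeR adjusted p = 0.000643 and 0.000698), PIM1 from a mean of 116 to 277 CPM. IRF7, the amplifier of type I interferon production, was at 9.55, 8.19 and 7.19 CPM in diluent and 26.5, 73.2 and 21.4 CPM in prexasertib, and its call was lost with a replicate block (adjusted p = 0.07). Guanylate-binding proteins and MHC class I genes were 8 higher and 1 lower of 28 tested, with 5 and 3 higher without diluent replicate 2 or 3. These are shares of 28.6% and 3.57%, against 15.5% and 6.36% of all genes. Classical MHC class I genes share sequence, so how reads were divided among them is uncertain. Of 24 tested schlafen, APOBEC3 and TRIM genes 5 were higher and 0 lower (2 and 1), a share of 20.8% higher against 15.5% of all genes. SP140, a nuclear body reader protein of leukocytes in that list, rose by 3.25 ± 0.34, from a mean of 1.28 to 12.2 CPM.

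Of 26 tested cyclins and CDK inhibitors 10 were higher and 2 lower, shares of 38.5% and 7.69% against 15.5% and 6.36% of all genes. CDKN1A, which encodes the CDK inhibitor p21, was at 7.50, 8.01 and 6.59 CPM in diluent and 71.7, 118 and 64.8 CPM in prexasertib (log2 fold change 3.52 ± 0.23, adjusted p = 3.55e-05, edgeR). CCNG2, a cyclin of arrested cells, went from 12.9, 10.5 and 13.2 CPM to 55.2, 68.5 and 40.3 CPM, and CDKN2B, the inhibitor p15, from 2.96, 2.55 and 2.41 CPM to 9.18, 14.8 and 6.74 CPM. These genes showed no overlap between groups. CDK6, a kinase of G1, was at 290, 322 and 329 CPM in diluent and 228, 169 and 220 CPM in prexasertib (adjusted p = 0.0149), and the call was lost without diluent replicate 3 (0.073). The list had 0 lower members without diluent replicate 3, 1 if diluent replicate 1 or 2 or prexasertib replicate 1 or 2 was left out, and 3 without prexasertib replicate 3. Along the ATR-CHK1 axis 6 of 28 tested genes were higher (21.4%) and 2 lower (7.14%, near the 6.36% of all genes). The share of higher genes stood against 15.5% of all genes, and without diluent replicate 3 only 2 were higher. Lower genes numbered 1 in fits that lacked a diluent library or prexasertib replicate 2, and 5 without prexasertib replicate 3. WEE1, the kinase that restrains CDK1, rose from 53.7, 62.8 and 58.6 CPM to 104, 146 and 97.5 CPM (log2 fold change 0.99 ± 0.16, adjusted p = 0.0028). RPA1, the large subunit of the single-strand DNA binding complex, fell from 201, 220 and 202 CPM to 132, 108 and 154 CPM (log2 fold change -0.66 ± 0.14, adjusted p = 0.0109).

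Of 34 tested spindle and mitotic exit genes 15 were higher (44.1%) and 1 lower, with a median log2 fold change of 0.42. AURKA, a kinase of spindle poles, was at 130, 137 and 129 CPM in diluent and 350, 430 and 261 CPM in prexasertib (log2 fold change 1.39 ± 0.17, adjusted p = 0.000584, edgeR). CDC20, the activator of the anaphase-promoting complex, was at 188, 255 and 206 CPM in diluent and 457, 629 and 397 CPM in prexasertib (log2 fold change 1.19 ± 0.19, adjusted p = 0.00215). UBE2S, a ubiquitin-conjugating enzyme of that complex, and NDC80, a kinetochore protein, rose by 1.15 ± 0.18 and 1.11 ± 0.16. In each of these 4 genes every treated library was above every control. The list's count was sensitive to libraries: 9, 7 and 8 genes were higher without diluent replicate 2, diluent replicate 3 or prexasertib replicate 1, and 24 without prexasertib replicate 3. Kinesins were 12 higher and 2 lower of 33 tested (36.4% and 6.06%, against 15.5% and 6.36% of all genes). Without diluent replicate 3, 7 were higher. KIF20A, a kinesin of the midbody, went from 112, 99.7 and 93.7 CPM to 226, 228 and 152 CPM.

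The CDC20 promoter is shown because mitotic genes as a group are known for a paired arrangement of the cell cycle homology region TTTGAA and CCAAT boxes. Its RefSeq window (GRCh38.p14) is chr1:43358731-43359030 on the plus strand, with TTTGAA and CCAAT on either strand in capitals:
CDC20: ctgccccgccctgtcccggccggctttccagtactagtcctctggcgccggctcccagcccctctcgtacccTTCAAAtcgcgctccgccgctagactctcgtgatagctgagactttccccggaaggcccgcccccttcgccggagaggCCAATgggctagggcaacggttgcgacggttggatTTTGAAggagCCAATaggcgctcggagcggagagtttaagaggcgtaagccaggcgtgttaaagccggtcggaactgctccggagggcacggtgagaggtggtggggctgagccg
Matches to TTTGAA lie at -178 to -173 (as its reverse complement) and -65 to -60, and CCAAT matches at -100 to -96 and -55 to -51 from the start. Of 27 spindle and mitotic exit genes with a window, 20 held TTTGAA and 20 held CCAAT (74.1% each), whereas over all windows the shares were 10.2% and 36.1%. Among windows of all higher genes TTTGAA was in 13.7%, and among those of lower genes in 7.38%.

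Replication genes showed no rise. Of 40 tested genes of the DNA replication machinery 0 were higher (2 and 0) and 6 were lower (15%, against 6.36% of all genes), with a median of -0.17. POLA1, the catalytic subunit of the priming polymerase, fell from 162, 188 and 172 CPM to 103, 93.2 and 122 CPM (log2 fold change -0.71 ± 0.14, adjusted p = 0.00595, edgeR). It was the member whose call was kept in every fit that left out 1 library. TYMS, thymidylate synthase, was at 102, 118 and 101 CPM in diluent and 64.0, 65.3 and 82.6 CPM in prexasertib, and its call (adjusted p = 0.0147) was lost without diluent replicate 2 (0.06). Its exons overlap those of ENOSF1. The count of lower genes was 1, 2, 2 and 2 without diluent replicate 2, diluent replicate 3 or prexasertib replicate 1 or 2, and 10 without prexasertib replicate 3.

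Replication-dependent histone genes rose broadly. Their mRNAs normally end in a stem-loop without a poly(A) tail, are made in S phase, and are poorly captured by poly(A) selection, so the values count the polyadenylated or otherwise captured part of these transcripts. Of 49 tested members 34 were higher (69.4%, against 15.5% of all genes) and 0 lower (0 and 0), with a median log2 fold change of 1.98 and per-library medians of 1.64, 2.60 and 2.26. Of the 49, 1 had 0 counts in every diluent library and could enter only through the treated libraries. Members with few diluent counts could enter in the same way, and these were not counted. HIST1H2AC was at 1.52, 3.95 and 2.96 CPM in diluent and 63.6, 98.8 and 58.8 CPM in prexasertib (log2 fold change 4.72 ± 0.34, adjusted p = 3.95e-05, edgeR). HIST1H3D was at 0.144, 0.712 and 0.655 CPM in diluent and 17.9, 23.7 and 14.1 CPM in prexasertib (log2 fold change 5.24 ± 0.45, adjusted p = 9.1e-05). Diluent replicate 1 was the lowest control in both, and the treated libraries were all far higher. HIST1H3D would not have passed the filter on low values by its diluent libraries alone. HIST1H3E, which also passed the filter only through the treated libraries, had 1 count in diluent and 370 in prexasertib, a ratio of 351 with an exact counting interval of 62.6 to 13900. These genes are near-identical within each histone class, so the division of reads among them is uncertain. Between 27 and 37 were called higher when 1 library was left out. Of 23 replacement histone and histone processing genes 8 were higher and 0 lower (2 and 2), and 4, 5 and 3 were higher without diluent replicate 1, 2 or 3. H1F0, the linker histone of differentiated cells, rose from a high level, from 141, 114 and 121 CPM to 522, 578 and 401 CPM (log2 fold change 2.00 ± 0.16, adjusted p = 7.7e-05).

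Caspases were blocked by Q-VD-OPh in both groups. In the BCL2 family 7 of 21 tested genes were higher and 1 lower, shares of 33.3% and 4.76% against 15.5% and 6.36% of all genes. PMAIP1 (NOXA), a BH3-only protein that neutralises MCL1, went from 20.4, 20.4 and 18.3 CPM to 85.2, 201 and 70.1 CPM (log2 fold change 2.59 ± 0.34, adjusted p = 0.000748, edgeR). BMF, another BH3-only protein, went from 23.4, 15.3 and 16.6 CPM to 44.98, 72.05 and 40.7 CPM. MCL1, the antiapoptotic partner of NOXA, also rose, from 224, 219 and 180 CPM to 420, 475 and 314 CPM (log2 fold change 0.96 ± 0.17). BCL2 was the lower member, at 68.8, 81.6 and 78.5 CPM in diluent and 51.9, 35.7 and 57.3 CPM in prexasertib, and its call (adjusted p = 0.0242) was lost without diluent replicate 2 or 3 (0.071 and 0.08). Of 26 tested caspase, IAP and necroptosis genes 7 were higher (26.9%, against 15.5% of all genes) and 1 lower (3.85%, against 6.36%). Without diluent replicate 3, 4 were higher. None was lower without diluent replicate 2 or 3 or prexasertib replicate 1 or 2, and 2 were without prexasertib replicate 3. CFLAR, which encodes the caspase-8 inhibitor FLIP, rose by 0.72 ± 0.14, from a mean of 63.2 to 105 CPM, and the initiator caspase gene CASP10 by 1.03 ± 0.17. BTG2, an antiproliferative gene outside that list, went from 7.45, 6.75 and 7.21 CPM to 41.2, 42.6 and 30.04 CPM (log2 fold change 2.41 ± 0.17, adjusted p = 3.95e-05). The treated libraries were close to each other and far above the controls.

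**Figure D3:**
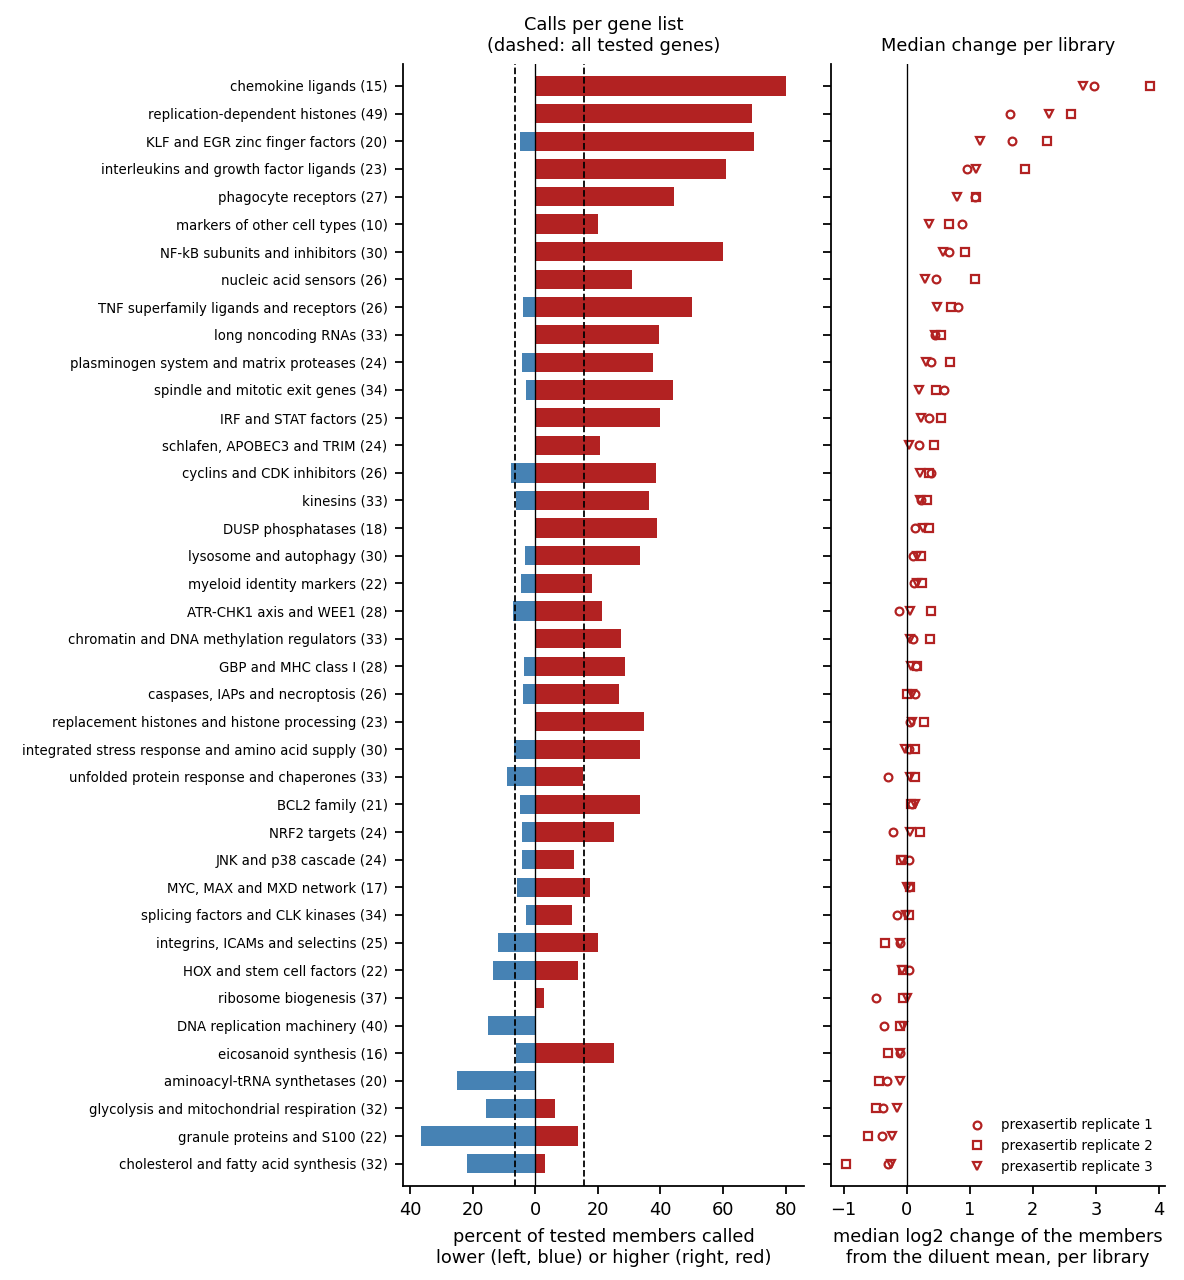
Left, percent of tested members of each of 40 gene lists called higher (red) or lower (blue), with the number tested in brackets and dashed lines at the 15.5% and 6.36% of all tested genes. Right, the median log2 change of each list from the diluent mean in each prexasertib library; chemokine ligands lie at 2.80 to 3.85 and cholesterol and fatty acid synthesis genes at -0.96 to -0.25.

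Lowered genes were mostly abundant and fell by less than 2-fold. SLC39A11, a zinc transporter (chromosome 17, 72645949 to 73092712, minus strand), fell from 64.6, 54.4 and 51.2 CPM to 28.4, 18.7 and 30.03 CPM (log2 fold change -1.14 ± 0.18, adjusted p = 0.00241, edgeR). AFF2, a nuclear protein of the AF4 family (chromosome X, 148500619 to 149000663, plus strand), fell from 286, 315 and 338 CPM to 180, 101 and 166 CPM (log2 fold change -1.07 ± 0.20, adjusted p = 0.00496). In both genes replicate 2 was the lowest library. That no treated library reached a control was required by the rule that named them. ARHGAP15, a Rac GTPase activating protein of leukocytes, fell from 111, 93.4 and 115 CPM to 51.9, 43.2 and 60.9 CPM (log2 fold change -1.03 ± 0.15, adjusted p = 0.00146). TNIK, a kinase of WNT signalling, and STXBP5L, a regulator of secretion, fell by 1.06 ± 0.20 and 1.22 ± 0.19, and EMB, a chaperone of monocarboxylate transporters, fell by 0.79 ± 0.17. All these calls were kept in every fit that left out 1 library, which held for only 111 of the 1008 lower genes. Other large falls found by the same naming rule lost their call in at least 1 such fit: BBS9, UTRN, TMCC1-AS1, INSIG1, GLO1, ACSS1 and ITGA4. A fall of at least 2-fold, as in SLC39A11, AFF2, ARHGAP15, TNIK and STXBP5L, was reached by 33 of the lower genes.

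Lipid synthesis genes showed modest decreases. Of 32 tested cholesterol and fatty acid synthesis genes 7 were lower (21.9%, against 6.36% of all genes) and 1 higher. The median was -0.42, with per-library medians of -0.29, -0.96 and -0.25. INSIG1, the sterol sensor that retains SREBP in the endoplasmic reticulum, was at 869, 646 and 903 CPM in diluent and 510, 188 and 481 CPM in prexasertib (log2 fold change -1.04 ± 0.31, adjusted p = 0.038, edgeR). FASN, fatty acid synthase, was at 776, 999 and 992 CPM in diluent and 631, 454 and 734 CPM in prexasertib (log2 fold change -0.61 ± 0.19, adjusted p = 0.0421). Replicate 2 was far the lowest in both. Neither call was stable: leaving out diluent replicate 1, 2 or 3 gave adjusted p = 0.12, 0.071 and 0.13 for INSIG1, and FASN had 0.11, 0.14, 0.067 and 0.1 without diluent replicate 2 or 3 or prexasertib replicate 1 or 2. The list had 3, 0 and 0 lower genes without diluent replicate 1, 2 or 3, 3 without prexasertib replicate 2 and 12 without prexasertib replicate 3.

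Aminoacyl-tRNA synthetases, which charge tRNAs, were 0 higher (0 and 0) and 5 lower of 20 tested (25% lower), with a median of -0.28. EPRS was at 627, 552 and 587 CPM in diluent and 407, 255 and 410 CPM in prexasertib (log2 fold change -0.72 ± 0.18, adjusted p = 0.0204, edgeR), and its call was lost without diluent replicate 1 or 3 (0.052 and 0.067). The list had 2, 2 and 0 lower genes without diluent replicate 1, 2 or 3, 2 without prexasertib replicate 1 or 2 each, and 8 without prexasertib replicate 3. Glycolysis and respiration genes were 2 higher and 5 lower of 32 (6.25% and 15.6%, against 15.5% and 6.36% of all genes). They had 0 or 1 lower in each fit without a diluent library or without prexasertib replicate 1 or 2, and 21 lower without prexasertib replicate 3. Ribosome biogenesis genes had 1 higher and 0 lower (5 and 1) of 37; the higher gene, RRN3, lost its call if diluent replicate 1, 2 or 3 (0.091, 0.059 and 0.099) or prexasertib replicate 2 (0.066) was left out, and 9 genes were lower without prexasertib replicate 3. NPM1, an abundant nucleolar chaperone, was at 1743, 1846 and 1803 CPM in diluent and 1220, 1192 and 1597 CPM in prexasertib and did not pass the test (log2 fold change -0.43 ± 0.15, adjusted p = 0.0614). In the MYC network 3 of 17 tested genes were higher and 1 lower, shares of 17.6% and 5.88%, near the 15.5% and 6.36% of all genes. MXD1, an antagonist of MYC that pairs with MAX, went from 16.6, 16.0 and 15.6 CPM to 98.0, 172 and 71.6 CPM (log2 fold change 2.82 ± 0.27, adjusted p = 0.00017). MYC went from 386, 392 and 318 CPM to 253, 177 and 267 CPM (log2 fold change -0.65 ± 0.17, adjusted p = 0.0233), and its call was lost without diluent replicate 1 or 2 (0.057 and 0.07).

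NRF2 targets were 6 higher and 1 lower of 24 tested, with a median of 0.00. These are shares of 25% and 4.17%, against 15.5% and 6.36% of all genes. SQSTM1 (p62), an autophagy receptor that also frees NRF2 from KEAP1, was at 131, 174 and 138 CPM in diluent and 414, 721 and 433 CPM in prexasertib (log2 fold change 1.82 ± 0.22, adjusted p = 0.000502, edgeR). NFE2L2, which encodes NRF2, rose from 118, 110 and 104 CPM to 204, 247 and 176 CPM. Lysosome and autophagy genes were 10 higher (33.3%) and 1 lower (3.33%) of 30, and 5 were higher without diluent replicate 3. MAP1LC3B, the autophagosome protein LC3B, went from 43.5, 49.8 and 47.0 CPM to 102, 172 and 95.3 CPM, and TFE3, a factor that switches on lysosomal genes, from 42.1, 53.2 and 45.8 CPM to 90.8, 118 and 90.7 CPM. Chromatin regulators were 9 higher and 0 lower (4 and 1) of 33, a share of 27.3% higher, with 4 higher without diluent replicate 3. KDM6B, a demethylase of H3 lysine 27 induced in activated macrophages, went from 40.4, 34.5 and 32.5 CPM to 168, 180 and 103 CPM (log2 fold change 2.07 ± 0.20, adjusted p = 0.000178). Of 34 splicing genes 4 were higher (11.8%, against 15.5% of all genes) and 1 lower, HNRNPA1 (log2 fold change -0.46 ± 0.14), with 0 lower when any library but prexasertib replicate 3 was left out and 5 without that one. The higher genes included 3 CLK kinases, which phosphorylate SR proteins: CLK1 rose by 1.30 ± 0.23, CLK4 by 0.91 ± 0.19 and CLK3 by 0.53 ± 0.13. The call of CLK3 was lost without diluent replicate 1, 2 or 3 (adjusted p = 0.057, 0.054 and 0.075).

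In the plasminogen system and matrix proteases 9 of 24 tested genes were higher and 1 lower (37.5% and 4.17%, against 15.5% and 6.36% of all genes). PLAU, the urokinase activator, of whose exon bases 31.1% overlap C10orf55, went from 34.9, 31.1 and 31.2 CPM to 80.2, 70.6 and 61.1 CPM (log2 fold change 1.12 ± 0.14, adjusted p = 0.000551, edgeR), and SERPINB2, the inhibitor PAI-2, from 103, 98.9 and 74.7 CPM to 178, 215 and 142 CPM. Activator and inhibitor rose together. Eicosanoid synthesis genes were 4 higher and 1 lower of 16 (25% and 6.25%, against 15.5% and 6.36% of all genes). PTGS2, the inducible cyclooxygenase COX-2, went from 0.217, 0.677 and 0.359 CPM to 7.14, 19.8 and 4.93 CPM (log2 fold change 4.68 ± 0.59, adjusted p = 0.000596). PLA2G4A, the classical cytosolic phospholipase A2, went the other way, from 68.6, 67.5 and 66.5 CPM to 49.7, 39.9 and 50.4 CPM, a call (adjusted p = 0.0177) that was lost without diluent replicate 2 or 3 (0.054 and 0.067). Long noncoding RNAs of a chosen list were 13 higher and 0 lower (1 and 0) of 33, a share of 39.4% higher, with 6 and 7 higher without diluent replicate 2 or 3. SNHG12, a small nucleolar RNA host gene, went from 23.3, 34.9 and 37.7 CPM to 61.9, 142 and 84.9 CPM, and MIR155HG, the host transcript of miR-155, from 9.75, 10.4 and 11.6 CPM to 16.8, 20.8 and 18.9 CPM. Over all 813 tested lncRNA genes 20.3% were higher and 0.615% lower, against 15.4% and 7.26% of 13206 protein-coding genes, at median levels of 1.13 and 27.7 CPM.

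The unfolded protein response and chaperone genes were 5 higher and 3 lower of 33 tested, with a median of 0.03. These are shares of 15.2% and 9.09%, near the 15.5% and 6.36% of all genes, and 2 were higher without diluent replicate 3. Lower members numbered 0 without diluent replicate 3, 1 if diluent replicate 2 or either of prexasertib replicates 1 and 2 was left out, and 5 without prexasertib replicate 3. ERN1, the endoplasmic reticulum stress sensor IRE1-alpha, went from 10.04, 10.99 and 11.16 CPM to 21.5, 42.4 and 20.2 CPM (log2 fold change 1.38 ± 0.26, adjusted p = 0.00523, edgeR). RND1, a constitutively active small GTPase that loosens adhesion, went from 0.852, 0.73 and 0.888 CPM to 13.7, 28.9 and 10.6 CPM (log2 fold change 4.42 ± 0.38, adjusted p = 9.1e-05). For both genes every treated library exceeded every control. Among the 10 tested markers of other cell types GFAP and COL1A2 were higher (20%, against 15.5% of all genes), and 0 were lower (1 at an unadjusted p under 0.05 and 0 by DESeq2). GFAP went from 0.116, 0.0712 and 0.148 CPM to 1.016, 1.81 and 0.824 CPM (log2 fold change 3.44 ± 0.50, adjusted p = 0.00134, edgeR). Both passed the filter on low values only through the treated libraries: COL1A2 had 0 counts in diluent and GFAP had 8, 4 and 7. Of GFAP's exon bases, 18.4% overlap CCDC103. Small numbers of lower genes were fragile throughout: of the 22 lists with 1 to 3 lower members, 20 had 0 in at least 1 fit that left out a library.

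The share of genes called depended on their level and on the length of the gene. In the lowest quintile of tested genes by mean CPM 22.5% were higher and 0.379% lower, and in the highest quintile 8.43% and 11.6%. Among genes with a mean of at least 5 CPM, a limit set after this dependence was seen, the share of lower genes went from 4.83% in the shortest quintile by genomic length to 20.6% in the longest quintile, where genes spanned at least 90.6 kb. Leaving out 1 library changed both shares but not their order: the longest quintile ranged from 4.33% without diluent replicate 3 to 23.2% without prexasertib replicate 3, where the shortest quintile had 0.64% and 17%. It was 7.73% without diluent replicate 2, 11.3% without prexasertib replicate 2 and 13.5% without diluent replicate 1, beside 0.985%, 1.77% and 1.08% in the shortest, and without prexasertib replicate 1 the shortest had 3.1% and the longest 17%. The median log2 fold change was -0.09 in the shortest and -0.20 in the longest quintile. The share of higher genes went from 15% to 8.07% across the same quintiles. The median level differed little between these end quintiles, 37.8 and 41.5 CPM. When the same genes were ordered by exonic length, the share of lower genes went from 6.45% to 11.1%, and by number of exon blocks from 5.51% to 14.2%, where the share of higher genes went from 17.9% to 8.42%. With a replicate block 18.5% of the shortest and 36.3% of the longest quintile were lower. SLC39A11 and AFF2, named above, belong to the longest quintile.

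**Figure D4:**
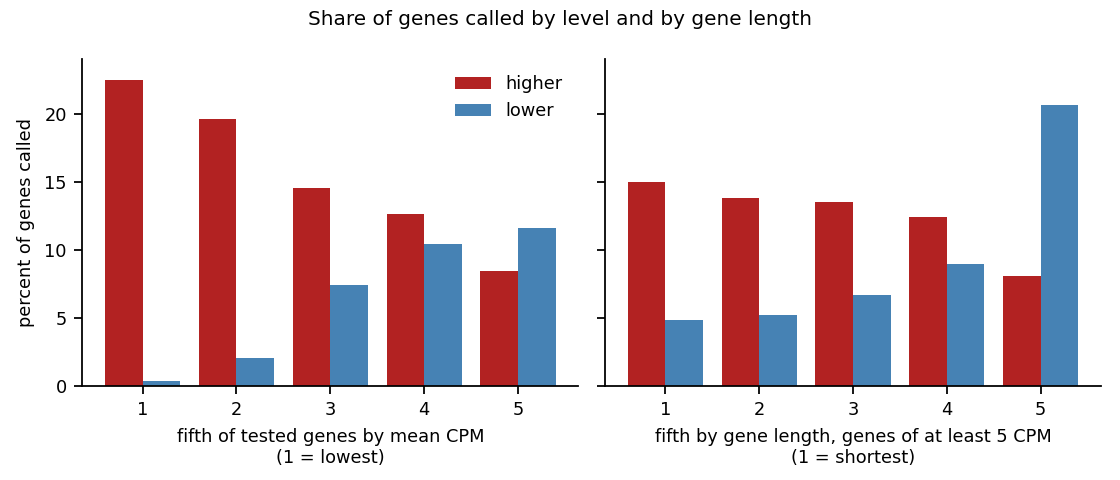
Percent of genes called higher (red) and lower (blue) in quintiles of the tested genes by mean CPM (left) and in quintiles of genes of at least 5 CPM by genomic length (right). Lower calls make up 20.6% of the longest quintile and 4.83% of the shortest.

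The U937 response was compared with that of ML1 in a fit of 12 libraries with a term for the difference of the responses, which tested 16906 genes. By edgeR the response in U937 was higher than in ML1 for 2069 genes (12.2%) and lower for 2023 genes (12%). Of the 2462 genes higher in U937, 451 rose more than in ML1 or against a fall there, 337 rose less than in ML1, and 1674 had no call of the difference. Of the 1008 lower genes, 151 fell more than in ML1 or against a rise there, 162 fell less and 695 had no call. IL18RAP, a subunit of the interleukin 18 receptor, rose in U937 from 2.67 ± 0.242 to 21.7 ± 8.36 CPM and was at 0.342 ± 0.111 and 0.216 ± 0.0509 CPM in ML1 (SD, n = 3 each; difference of log2 fold changes 3.65 ± 0.46 SE, adjusted p = 3.11e-05, edgeR). CXCL10 rose in both lines but less in U937, to 18.5 ± 8.37 CPM against 347 ± 90.8 CPM in ML1 (difference -6.07 ± 0.55, adjusted p = 2.36e-06). TNF reached 16.4 ± 7.32 CPM in U937 and 196 ± 54.9 CPM in ML1 from similar diluent levels of 2.68 ± 0.420 and 3.89 ± 1.77 CPM (difference -3.04 ± 0.49, adjusted p = 0.000401).

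**Figure D5:**
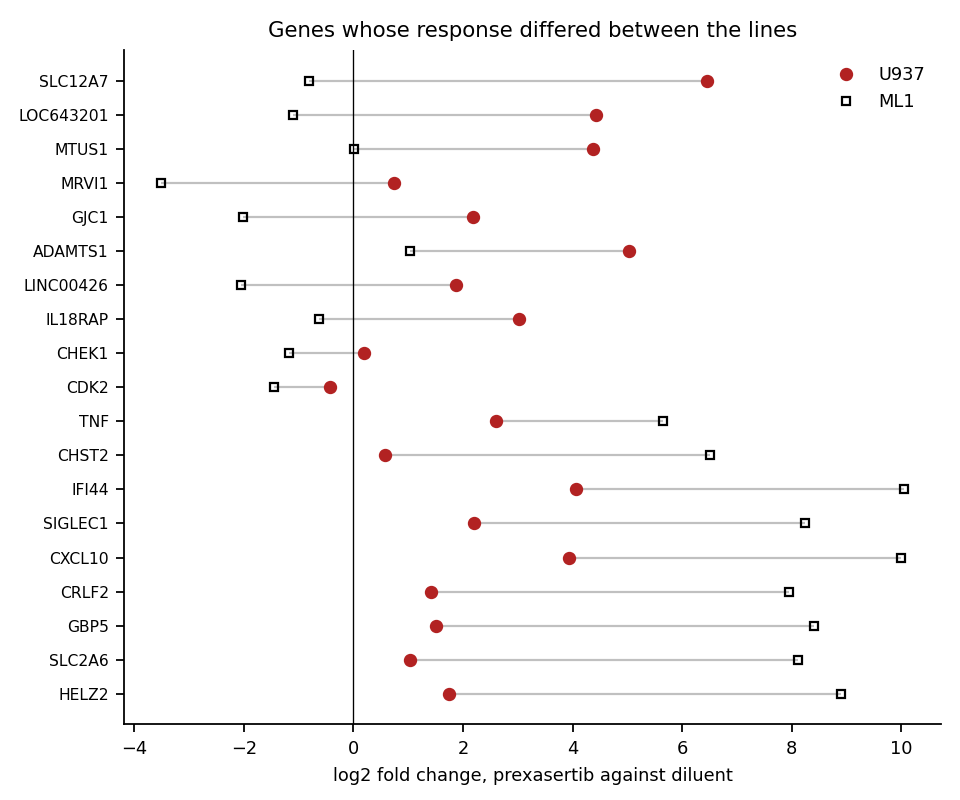
Fitted log2 fold change under prexasertib in U937 (red circles) and ML1 (open squares) for the 19 genes named in the comparison of the lines, ordered by the difference. At the bottom, HELZ2 and the 7 genes next to it rose by 0.57 to 4.07 in U937 and by 6.51 to 10.04 in ML1; at the top, SLC12A7 rose by 6.45 in U937 and had a value of -0.81 in ML1.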

How the data were processed

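Read counts per gene for 6 U937 RNA-seq libraries (TruSeq RNA v2, which does not mark strand) were used as the authors deposited them, unnormalised. Per the submitters' processing notes the tools were TopHat2 2.0.14, Bowtie2 2.2.6 and featureCounts 1.4.6 with build hg38; which annotation and strand option were set, and if fragments were counted, is not given in the sources read here. Genes were filtered with filterByExpr, scaled by TMM and tested with edgeR 4.0.16 (robust quasi-likelihood F test, R 4.3.3), with Benjamini-Hochberg adjustment over 15841 genes and 4 residual degrees of freedom. The common biological coefficient of variation was 0.199. ± after a fold change is its standard error. CPM are counts scaled to the TMM-adjusted library size. The same code was tested on simulated data. The difference between lines was fitted on 12 libraries. DESeq2 1.42.0 and other filters, scalings and left-out libraries were alternatives.

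The 42 lists hold 1211 genes, 4 of them not matched in the file; members and lists were chosen with earlier results of these data known. Named genes were the 12 largest changes each way at a mean of at least 5 CPM and the 8 largest at 100 CPM without overlap between groups, up to 4 members per list and direction with the smallest p, 8 genes each way that differed between lines, and CHEK1, CDK2 and TNF; the text names a share of them, and some genes and lists are not reported here. Coordinates are from GENCODE 29 (GRCh38), matched by symbol for 90.2% of genes, and promoter windows from RefSeq (GRCh38.p14) for 70.1% of tested genes. No column of the file lacked a sample.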

Additional observations from a re-analysis of the deposited data

Results flagged for a closer look

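The listed genes showed a different response to prexasertib in U937 than in ML1, tested as the difference of log2 fold changes (U937 minus ML1) with edgeR over 16906 genes. The response was lower in U937 for the interferon-linked genes HELZ2 (-7.15), GBP5 (-6.88), CXCL10 (-6.07), SIGLEC1 (-6.04) and IFI44 (-5.97). It was also lower for the glucose transporter family gene SLC2A6 (-7.09), the cytokine receptor CRLF2 (-6.52) and the sulfotransferase CHST2 (-5.94). In ML1 diluent GBP5, CXCL10, IFI44, SLC2A6, CRLF2 and CHST2 were near the floor, at 0.055 to 0.324 CPM. HELZ2 and SIGLEC1 were at 2.88 and 7.08 CPM there. CHST2 went from 25.2 to 37.4 CPM in U937 and reached only 5.13 CPM in ML1, so its level stayed higher in U937. The difference for IFI44 had an adjusted p of 0.0298, which rose to as much as 0.15 when 1 library was left out. The other differences named here were called in every such fit. That holds for the differences, not for the rise in U937 itself. In the fit to the 6 U937 libraries the calls of HELZ2, SLC2A6, SIGLEC1, IFI44 and CHST2 were lost in at least 1 fit that left out a library.

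The response was higher in U937 for the potassium-chloride cotransporter gene SLC12A7 (7.26), LOC643201 (5.53), MTUS1 (4.38) and MRVI1 (4.23). The same held for the connexin gene GJC1 (4.2), the protease ADAMTS1 (4.0), LINC00426 (3.94) and IL18RAP (3.65). A higher response was not always a higher level. Under prexasertib ADAMTS1 was at 2.33 CPM in U937 and 73.1 CPM in ML1, and LOC643201 at 1.16 and 10.2 CPM. MRVI1 went from 5.32 to 8.88 CPM in U937 and from 5.96 to 0.528 CPM in ML1. The calls of MRVI1 and GJC1 in U937 alone were lost in fits that left out a library. For GJC1 the adjusted p was 0.18 without prexasertib replicate 2 (edgeR). SLC12A7 went from 0.0756 to 7.17 CPM in U937 and from 36.4 to 20.8 CPM in ML1, where its change did not pass the test (adjusted p = 0.0877). For the genes named whatever their rank, the differences were 1.37 for CHEK1, 1.01 for CDK2 and -3.04 for TNF.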

How the results depend on the processing

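The 2462 higher and 1008 lower calls became 3160 and 2209 with all 15 libraries in the fit, 2736 and 1739 with DESeq2, 1506 and 521 with a filter of 5 CPM in at least 3 libraries, and 639 and 0 when a change beyond 2-fold was tested (7 lower at an unadjusted p under 0.05). That filter tests fewer genes, 10678. Leaving out 1 library gave 1446 to 2845 higher and 133 to 1870 lower genes, the lowest counts without diluent replicate 3 and the highest without prexasertib replicate 3. DESeq2 size factors, upper-quartile factors, no filter and thinning to the smallest total kept both counts within 1.5 times. Whether replicate numbers pair the libraries was not settled: over all tested genes the deviations of same-numbered libraries correlated at 0.388, 0.123 and 0.074, over genes with a mean of at least 1 CPM at 0.529, 0.243 and 0.128, and in both sets prexasertib replicate 3 correlated best with diluent replicate 2. With a replicate block 3383 genes were higher and 2711 lower, and in the comparison of lines 2188 and 2111. That comparison kept both of its counts, 2069 and 2023, within 1.5 times in every alternative run. Of 232 named genes with a call, 73 kept it in every setting that tested them and 0 reversed. The test of a change beyond 2-fold, which asks a stricter question, by itself kept 78. Among the fits that left out 1 library the fewest, 145, were kept without diluent replicate 3. The 5 CPM filter tested 201 of the 232 and DESeq2 gave 229 an adjusted p. The cause of these differences was not tested. Depth limits the genes at the bottom of the range, where 1 to 3 diluent counts leave wide ratios.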
